A study of Mus musculus with 31 samples.

Results

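Chemokines are small secreted proteins that draw migrating cells along a gradient. The 10 chemokine genes described here are Cxcl1, Cxcl5, Cxcl10, Cxcl12, Cxcl16, Ccl2, Ccl5, Ccl7, Ccl9 and Cx3cl1. They were picked by symbol from the table of exon counts, with the transcript of the highest total kept for each symbol, and all 10 were found among its 24470 symbols. RNA-seq was run on cultured female dermal fibroblasts, the matrix-producing cells of the skin, from a CAST/Ei x 129/Sv/Jae hybrid strain. The series asks what Xist RNA, the long noncoding RNA that coats the inactive X chromosome, does once inactivation is in place, and also holds 17 ATAC-seq and 8 ChIP-seq samples that were not used here. There were 3 groups of 2 libraries: WT cells, and line 1 and line 2, which are separate cell lines that the labels describe as XaWT XiΔXist. In both lines the active X is intact and Xist was deleted from the inactive X after X inactivation was complete. No group was treated, and all were grown in the same serum-containing medium. The sources used here do not give the age of the animals, whether each line is a single clone, or what the replicates of a group share. The p-values therefore measure the spread between these libraries, which may be technical. A difference between a line and WT cannot be told apart here from one that arose while that line was derived.

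Fibroblasts act as sentinels of the skin and recruit white blood cells through chemokines. CXC chemokines that carry a Glu-Leu-Arg motif, here Cxcl1 and Cxcl5, bind Cxcr2 and draw neutrophils. Cxcl10 and Ccl5 draw T cells and are induced by interferon and by viral RNA, while Ccl2, Ccl7 and mouse Ccl9 draw monocytes and other myeloid cells. Cxcl12 is the homeostatic chemokine of stromal cells and binds Cxcr4 and the scavenger Ackr3. Cx3cl1 and Cxcl16 are made as membrane-anchored proteins that the proteases Adam10 and Adam17 release. Inflammatory chemokine promoters commonly hold sites for NF-kappaB, and those of interferon-induced genes hold interferon-stimulated response elements (ISRE) bound by STAT and IRF factors.

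The 250 bases before the start of Cxcl1, Cxcl10, Ccl9 and Cxcl12 are printed because these genes showed 4 different patterns across the groups: higher in both lines, higher in line 1, highest in line 2, and lower in line 1. RefSeq promoters on GRCm38.p6 were matched by symbol for 5 of the 10 genes, the fifth being Cx3cl1. Each is written 5′ to 3′ on the strand of its gene, and capitals mark matches on either strand to GGGNNNTTCC (kappaB-like) or GAAANNGAAA (ISRE-like). The regions are chr5:90890995-90891244 on the plus strand, chr5:92348890-92349139 on the minus strand, chr11:83578637-83578886 on the minus strand and chr6:117168285-117168534 on the plus strand.
Cxcl1: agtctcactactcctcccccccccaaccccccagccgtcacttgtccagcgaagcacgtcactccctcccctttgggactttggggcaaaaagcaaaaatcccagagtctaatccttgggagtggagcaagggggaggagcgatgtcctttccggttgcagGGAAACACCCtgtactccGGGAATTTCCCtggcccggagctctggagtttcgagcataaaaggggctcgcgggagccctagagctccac
Cxcl10: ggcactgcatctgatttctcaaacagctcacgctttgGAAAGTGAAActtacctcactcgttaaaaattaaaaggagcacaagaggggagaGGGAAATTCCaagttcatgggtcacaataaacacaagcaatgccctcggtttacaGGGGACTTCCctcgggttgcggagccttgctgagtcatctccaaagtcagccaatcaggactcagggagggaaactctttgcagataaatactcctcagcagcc
Ccl9: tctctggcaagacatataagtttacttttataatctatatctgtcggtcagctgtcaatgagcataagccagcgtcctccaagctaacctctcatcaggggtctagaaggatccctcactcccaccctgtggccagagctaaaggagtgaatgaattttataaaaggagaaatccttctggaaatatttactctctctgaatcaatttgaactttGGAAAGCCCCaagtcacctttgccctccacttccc
Cxcl12: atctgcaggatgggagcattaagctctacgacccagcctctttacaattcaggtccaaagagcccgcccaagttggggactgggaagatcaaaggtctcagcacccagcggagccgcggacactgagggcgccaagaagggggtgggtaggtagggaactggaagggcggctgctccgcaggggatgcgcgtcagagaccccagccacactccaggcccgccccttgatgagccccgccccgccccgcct
The Cxcl1 window held 3 kappaB-like matches, of which the pair at bases -71 to -62 and -70 to -61 lie on opposite strands of nearly the same bases. Cxcl10 held 2 kappaB-like matches, GGGAAATTCC and GGGGACTTCC, and 1 ISRE-like match, GAAAGTGAAA. Ccl9 held 1 kappaB-like match at bases -35 to -26, and the Cxcl12 and Cx3cl1 windows held neither motif. Among 32536 distinct promoter windows of the same length, 4.65% held the kappaB-like letters and 2.98% the ISRE-like letters. A match is a description of the letters and not evidence of binding.

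Depth as given in the table's header ran from 10.5 to 20.1 M (M, 1e6 counts) per library, and the exon counts used summed to between 3.81 and 7.07 M, with replicate 1 shallower in each group. Levels are given as CPM (counts scaled to a common library size with TMM). Xist stood at 633 and 429 CPM in WT and between 0.273 and 1.08 CPM in the 4 libraries of the lines, as the labels state. All 10 fibroblast markers had counts in every library, though for Lum these were only 1 to 18.5. The summed level of the 10, mostly of collagens and Fn1, ran from 4406 to 7029 CPM. Among them Dcn, the matrix proteoglycan decorin, was at 61.9 and 26.9 CPM in WT, 243 and 156 CPM in line 1 (adjusted p = 0.0215, and 0.0586 without WT replicate 2), and 28.6 and 19.7 CPM in line 2. A fit with the replicate number as a block called 2 of the 10 fibroblast markers higher in line 1 in place of 1. It called 1 lower in line 2 in place of 0, and 2 lower between the lines in place of 1. That fit called 32.4%, 12.1% and 27.2% of all genes in these comparisons. Of 13 leukocyte markers, 4 to 7 had no count in a library. Their summed level was 18.9 to 19.96 CPM in WT, 29.5 to 30.5 in line 1 and 27.6 to 30.3 in line 2. Ptprc, the pan-leukocyte surface marker, had at most 1 count per library and Tyrobp had none, while the 3 markers tested did not move together. Cd14 was at 3.54 and 3.36 CPM in WT and 10.8 and 19.9 in line 1 (adjusted p = 0.0132), Lyz2 at 11.4 and 12.2 CPM in WT and 4.87 and 1.91 in line 1 (0.0307), and Cd68 at 2.27 and 2.08 CPM in WT and 13.0 and 4.91 in line 1 (0.0605). With the replicate number as a block, 2 of these 3 were called higher and 1 lower, Cd68 being the call gained. DESeq2 gave the same counts. The Cd14 and Lyz2 calls were each lost without WT replicate 1 (0.0782 and 0.108) or WT replicate 2 (0.102 and 0.141), and that of Lyz2 without line 2 replicate 1 (0.0662) or line 2 replicate 2 (0.0700). The 8 keratinocyte markers summed to 41.2 and 45.0 CPM in WT, 1.77 to 2.43 in line 1 and 4.23 to 9.21 in line 2, with 1 to 5 of them at 0. That sum was nearly all Dsp, a desmosome protein (33.4 and 39.4 CPM in WT), and Trp63 (7.07 and 4.16), while the other 6, keratins and Epcam among them, had 0 to 2.5 counts in every library. Dsp was at 1.08 and 0.546 CPM in line 1 and 3.63 and 1.69 CPM in line 2. Trp63 was at 1.08 and 0.409 CPM in line 1 and 4.85 and 2.40 CPM in line 2. Both were called lower in line 1, where 7.55% of all tested genes were, and Dsp in line 2, where 1.85% were. The 7 endothelial markers summed to 10.7 and 12.4 CPM in WT, 3.24 to 3.69 in line 1 and 6.20 to 6.78 in line 2, with 1 to 3 of them at 0. Kdr (5.81 and 7.20 CPM in WT) was at 0 in line 1 and at 1.21 and 0.564 CPM in line 2, and Erg (5.05 and 2.08 CPM in WT) was at 0.270 CPM or less in the lines. Of the 3 endothelial markers tested, these 2 were called lower in each line, and DESeq2 called 1 lower in each. Among the keratinocyte and endothelial calls against WT, only those of Dsp and Kdr in line 1 held with any library left out. Tek was at 1.26 and 0.960 CPM in WT and 4.603 and 3.95 CPM in line 2 (adjusted p = 0.0767), and Pecam1 had 0.5 to 1.5 counts in every library. With the replicate block Tek was called higher in line 2. The part of these markers in the results below was not tested, and in such bulk cultures fewer cells of a type and less RNA per cell cannot be told apart.

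Against WT, 7 of the 10 chemokine genes passed the test in line 1 and 4 in line 2. A gene was called at an adjusted p under 0.05 in edgeR's quasi-likelihood test, adjusted over 12910 genes. In line 1, Cxcl1, Cxcl5, Cxcl10, Ccl5 and Cx3cl1 rose and Cxcl12 and Cxcl16 fell, where 14.3% of all tested genes were called, 6.75% higher and 7.55% lower. In line 2, Cxcl1, Ccl9 and Cx3cl1 rose and Cxcl16 fell, where 3.58% of all tested genes were called, 1.73% higher and 1.85% lower. Both comparisons use the same WT libraries. The median log2 fold change of the 10 genes was 1.44 in line 1 and 0.69 in line 2, against 0.01 over all tested genes in either comparison. Both libraries of line 1 lay beyond both WT libraries for 9 of the 10 genes, where 51% of all genes did, and for line 2 this held for 7, where 48.8% did. All 10 genes passed the filter on low counts, but Cxcl1, Cxcl10, Ccl5 and Ccl9 had no WT library at its cutoff of 1.92 CPM and passed through the lines alone. The 10 genes were also chosen with earlier results of these data known, so the number called and the median support nothing by themselves. The calls depended on which libraries were in the fit: with each of the 6 libraries left out in turn, 3 of the 7 line 1 calls (Cxcl1, Cxcl5 and Cxcl12) were kept throughout, and 0 of the 4 line 2 calls were.

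**Figure D1:**
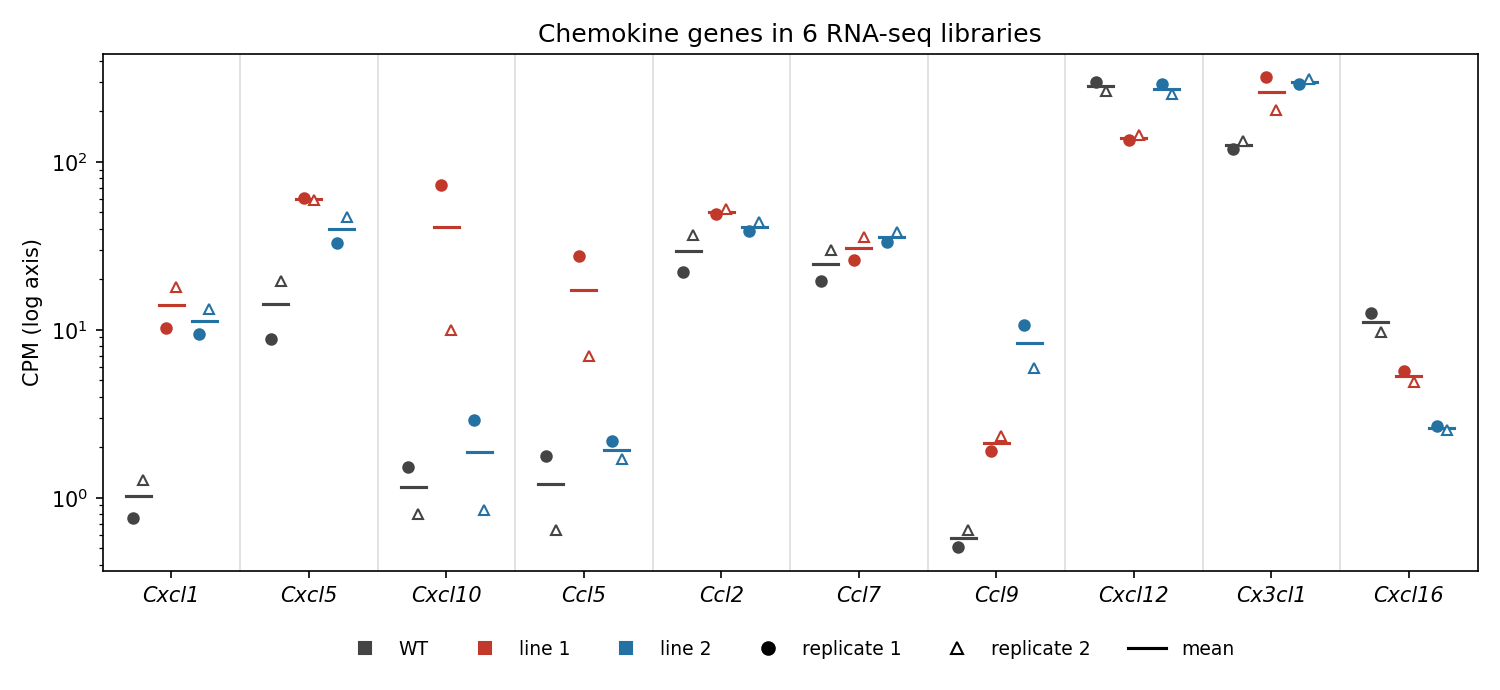
Level of each of the 10 chemokine genes in CPM on a log axis, with 1 point per library (circles for replicate 1, triangles for replicate 2) and a bar at the mean of each group. Cxcl1 lay between 0.758 and 1.28 CPM in WT and between 9.45 and 17.9 CPM in the lines, and Cxcl10 spread from 9.96 to 72.4 CPM within line 1.

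The neutrophil chemokines both rose in line 1, and Cxcl1 also rose in line 2. Cxcl1 lies on chromosome 5 at 90891245 to 90893115 (mm10, as are all gene positions here), and Cxcl5 lies 129.6 kb away at 90759298 to 90761625. Cxcl1 was measured at 0.758 and 1.28 CPM in WT, 10.3 and 17.9 CPM in line 1, and 9.45 and 13.2 CPM in line 2. All 4 libraries of the lines were above both WT libraries, and the lines overlapped each other. The WT values rest on 3 and 7.5 counts, against 37.5 to 130.5 counts in the lines. Cxcl1 rose 13.2-fold in line 1, a log2 fold change of 3.72 ± 0.47 (SE, n = 2 libraries a group, adjusted p = 0.00462 in edgeR). In line 2 it rose by 3.40 ± 0.47 on the log2 scale (adjusted p = 0.0210). The line 1 call held in every fit with a library left out, at adjusted p up to 0.0336. The line 2 call was lost without WT replicate 1 (0.127), WT replicate 2 (0.128), line 2 replicate 1 (0.0724) or line 2 replicate 2 (0.148), each an adjusted p.

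Cxcl5 stood at 8.84 and 19.5 CPM in WT, 61.1 and 59.4 CPM in line 1, and 33.0 and 47.0 CPM in line 2. The groups did not overlap, with WT lowest and line 1 highest. It rose in line 1 by 2.05 ± 0.37 on the log2 scale (adjusted p = 0.0157), and this call held with any library left out, at 1.62 without WT replicate 1 and 2.78 without WT replicate 2. The log2 difference of line 2 from WT was 1.47 ± 0.36, which did not pass (adjusted p = 0.106), and it was 2.18 without WT replicate 2. It passed with the replicate number as a block (adjusted p = 0.0149), in DESeq2 (adjusted p = 0.00409) and with no filter on low counts (adjusted p = 0.00386). WT replicate 1 had 0.453 times the Cxcl5 level of WT replicate 2.

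The interferon-inducible T cell chemokines were raised in line 1 and not called in line 2. Cxcl10 (chromosome 5, 92346639 to 92348889) was at 1.52 and 0.800 CPM in WT, 72.4 and 9.96 CPM in line 1, and 2.91 and 0.846 CPM in line 2. Both line 1 libraries were above every other library but lay far apart from each other, and line 2 overlapped WT. Replicate 1 had 7.27 times the level of replicate 2 in line 1, 3.44 times in line 2 and 1.90 times in WT. Cxcl10 rose in line 1 by 5.17 ± 1.19 on the log2 scale (adjusted p = 0.0363). Compared replicate by replicate, line 1 was 47.8-fold and 12.5-fold above WT. In line 2 the log2 difference was 0.61 ± 1.56 (adjusted p = 0.947), with a 95% interval from -3.16 to 4.39.

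Ccl5 (chromosome 11, 83525779 to 83530518) followed the same order of libraries in line 1. It was at 1.77 and 0.640 CPM in WT, 27.6 and 6.96 CPM in line 1, and 2.18 and 1.69 CPM in line 2. Line 1 lay above all other libraries, and line 2 overlapped WT. The gene rose in line 1 by 3.88 ± 0.85 on the log2 scale (adjusted p = 0.0304), which was 15.6-fold in replicate 1 and 10.9-fold in replicate 2. In line 2 the log2 difference was 0.76 ± 1.02 (adjusted p = 0.870). WT counts were low for both genes, between 4 and 6.5 per library. The line 1 call of Cxcl10 was lost without WT replicate 1 (adjusted p = 0.139), WT replicate 2 (0.195), line 2 replicate 1 (0.0513) or line 2 replicate 2 (0.0524). That of Ccl5 was lost without the same 4 libraries in turn, at adjusted p of 0.0873, 0.174, 0.0548 and 0.0549. A fit of WT and line 1 alone also ended both calls (0.0529 for Cxcl10 and 0.0552 for Ccl5). Leaving out line 1 replicate 1 gave a log2 fold change of 3.16 for Cxcl10 and 2.63 for Ccl5, and leaving out line 1 replicate 2 gave 6.03 and 4.62, so the size depended on the library. It was 4.66 for Ccl5 without WT replicate 1 and 3.23 without WT replicate 2.

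The monocyte chemokines differed less, apart from Ccl9 in line 2. Ccl2 (chromosome 11, 82035577 to 82037452) and Ccl7 (82045712 to 82047523) are neighbours 8.3 kb apart. Ccl2 was at 22.0 and 36.8 CPM in WT, 48.7 and 52.4 CPM in line 1, and 38.5 and 43.7 CPM in line 2. The groups did not overlap, with WT lowest and line 1 highest. The log2 difference was 0.77 ± 0.25 in line 1 (adjusted p = 0.103) and 0.47 ± 0.25 in line 2 (adjusted p = 0.507). The line 1 difference passed with the replicate block (adjusted p = 0.0157) and with no filter on low counts (adjusted p = 0.0490). Ccl7 was at 19.5 and 29.8 CPM in WT, 26.0 and 35.5 CPM in line 1, and 33.4 and 38.2 CPM in line 2. Line 1 overlapped WT, and both line 2 libraries were above both WT libraries. Its log2 difference was 0.32 ± 0.27 in line 1 (95% interval -0.33 to 0.97, adjusted p = 0.527) and 0.53 ± 0.27 in line 2 (-0.11 to 1.18, adjusted p = 0.465).

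Ccl9, a mouse chemokine for Ccr1-bearing myeloid cells, lies 42.4 kb from Ccl5 at 83572917 to 83578636 of chromosome 11. It was near the detection limit in WT at 0.505 and 0.640 CPM (2 and 4 counts), at 1.89 and 2.32 CPM in line 1, and at 10.7 and 5.92 CPM in line 2. The 3 groups did not overlap, with WT lowest and line 2 highest. It rose 13.4-fold in line 2, a log2 fold change of 3.74 ± 0.49 (adjusted p = 0.0191). In line 1 the log2 difference was 1.83 ± 0.57, which did not pass (adjusted p = 0.0868). It passed with the replicate block (adjusted p = 0.0447) and with no filter on low counts (adjusted p = 0.0326). The line 2 call was lost without WT replicate 1 (adjusted p = 0.124), WT replicate 2 (0.144), line 2 replicate 1 (0.0902) or line 2 replicate 2 (0.0790). Ccl5 and Ccl9 are neighbours, and line 1 was higher for Ccl5 while line 2 was higher for Ccl9.

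Cxcl12, on chromosome 6 at 117168535 to 117181368, fell in line 1. It was at 299 and 265 CPM in WT, 134 and 145 CPM in line 1, and 292 and 254 CPM in line 2. Both line 1 libraries were far below all others, and line 2 overlapped WT. The log2 fold change in line 1 was -1.02 ± 0.13 (adjusted p = 0.00535), and this call held with any library left out. In line 2 the log2 difference was -0.05 ± 0.13 (adjusted p = 0.952), with a 95% interval from -0.36 to 0.27. Cxcl12 has 2 RefSeq transcripts in the table, and the ratio of counts of NM_013655, the one used, to NM_021704 was between 0.781 and 1.11 in the 6 libraries. Reads on exons that the transcripts share count for both.

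The membrane-anchored pair moved in opposite directions in both lines. Cx3cl1 (chromosome 8, 94772180 to 94782426), which is made as a cell-surface ligand for cells bearing Cx3cr1, was at 119 and 134 CPM in WT, 318 and 205 CPM in line 1, and 292 and 310 CPM in line 2. All libraries of the lines were above WT, and line 2 lay within the range of line 1. It rose in line 1 by 1.04 ± 0.22 on the log2 scale (adjusted p = 0.0265) and in line 2 by 1.25 ± 0.22 (adjusted p = 0.0385). The line 1 call was lost without WT replicate 1 (adjusted p = 0.154), WT replicate 2 (0.0959) or line 2 replicate 1 (0.0549), and in a fit of WT and line 1 alone (0.0544). The line 2 call was lost without WT replicate 1 (0.237), WT replicate 2 (0.169), line 2 replicate 1 (0.170) or line 2 replicate 2 (0.205).

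Cxcl16 (chromosome 11, 70454234 to 70459984), the ligand of Cxcr6 and a scavenger receptor for oxidized lipoprotein, was at 12.6 and 9.76 CPM in WT, 5.68 and 4.91 CPM in line 1, and 2.67 and 2.54 CPM in line 2. The groups did not overlap, with WT highest and line 2 lowest. It fell by 1.08 ± 0.27 on the log2 scale in line 1 (adjusted p = 0.0463) and by 2.09 ± 0.29 in line 2 (adjusted p = 0.0209). The line 1 call was lost in DESeq2 (adjusted p = 0.199) and without WT replicate 1 (0.270), WT replicate 2 (0.146), line 1 replicate 1 (0.0530), line 1 replicate 2 (0.122), line 2 replicate 1 (0.112) or line 2 replicate 2 (0.119), and in a fit of WT and line 1 alone (0.107). The line 2 call was lost without WT replicate 1 (0.138), WT replicate 2 (0.0992), line 2 replicate 1 (0.161) or line 2 replicate 2 (0.213), each an adjusted p.

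**Figure D2:**
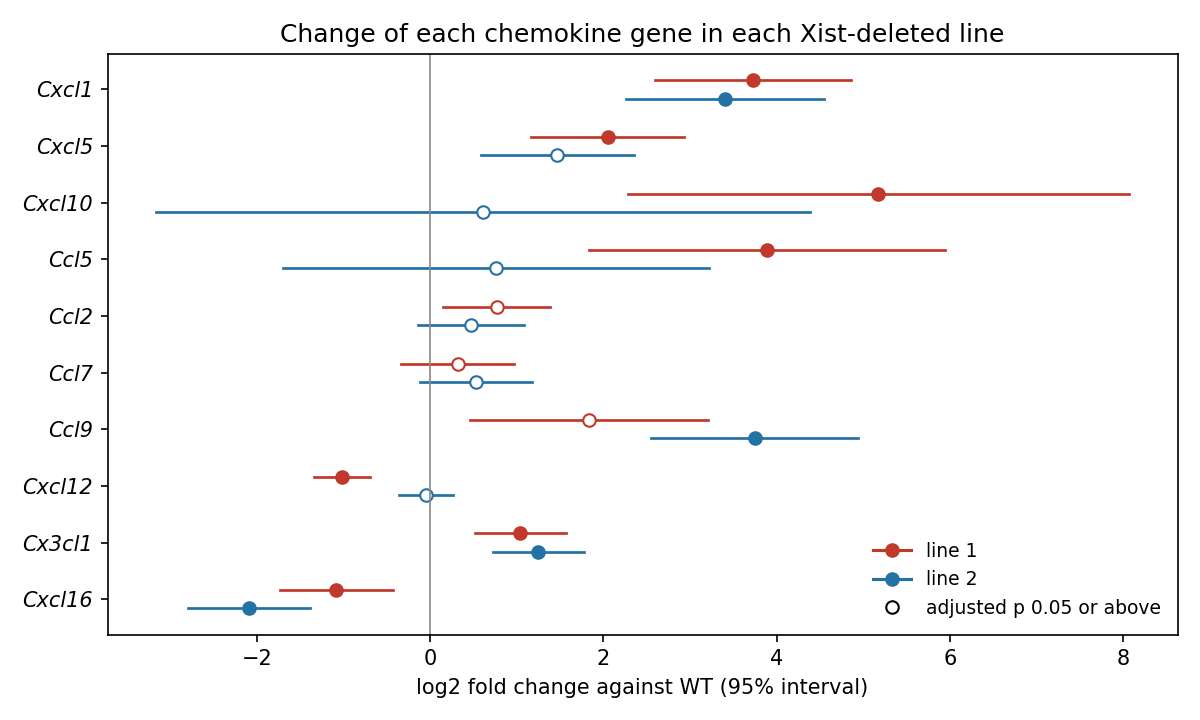
Log2 fold change against WT of each chemokine gene in line 1 and in line 2, with 95% intervals from edgeR (n = 2 libraries a group). The intervals of Cxcl1, Cxcl5, Ccl9 and Cx3cl1 lie above 0 in both lines and that of Cxcl16 below 0 in both, while those of Cxcl10, Ccl5, Ccl2 and Cxcl12 exclude 0 in line 1 and include it in line 2.

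Whether the lines differ from each other was tested directly. Of the 10 genes, 4 passed, where 12.6% of all tested genes were called: Cxcl12 and Ccl9 were higher in line 2 and Cxcl10 and Ccl5 were lower. Higher calls made up 6.87% and lower calls 5.76% of all genes. The libraries of the lines did not overlap for 7 of the 10 genes, where 48.3% of all genes did not. For Cxcl12 the log2 difference of line 2 from line 1 was 0.97 ± 0.13 (adjusted p = 0.00672), for Ccl9 1.91 ± 0.40 (0.0289), for Cxcl10 -4.56 ± 1.11 (0.0476) and for Ccl5 -3.12 ± 0.77 (0.0497). Cxcl12 was no longer called without line 2 replicate 1 (adjusted p = 0.0541). Ccl9 missed the threshold in DESeq2 (0.0668) and with any of the 6 libraries left out (0.0557 to 0.163). Cxcl10 missed it without WT replicate 1 (0.0730), WT replicate 2 (0.0689), line 2 replicate 1 (0.132) or line 2 replicate 2 (0.251), and Ccl5 without the same 4 (0.0669, 0.0622, 0.185 and 0.256). In a fit of the lines alone, Ccl9 (0.0558), Cxcl10 (0.0750) and Ccl5 (0.0676) missed it, and with counts summed over transcripts Ccl5 did (0.0512). Leaving out line 1 replicate 1 gave a log2 difference of -2.56 for Cxcl10 and -1.87 for Ccl5, and leaving out line 1 replicate 2 gave -5.43 and -3.85. Without line 2 replicate 1 it was -5.53 for Cxcl10, and without line 2 replicate 2 it was -3.79.

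Cxcl1 was raised in both lines, and its log2 difference between them was -0.32 ± 0.35 (adjusted p = 0.685, 95% interval -1.17 to 0.52). For Cx3cl1 it was 0.21 ± 0.21 (adjusted p = 0.660, interval -0.31 to 0.72), and without line 1 replicate 1 it passed at 0.56 (adjusted p = 0.0387). Cxcl5 differed by -0.58 ± 0.34 (adjusted p = 0.380) and Cxcl16 by -1.01 ± 0.30 (adjusted p = 0.0889). The Cxcl16 difference passed with the replicate block (adjusted p = 0.0280). Ccl2 and Ccl7 differed by -0.30 ± 0.25 and 0.21 ± 0.26, with adjusted p of 0.575 and 0.733.

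The make-up of chemokine RNA can be compared between genes only per length, as CPM per kb of mRNA. In WT, Cxcl12 led at 88.9 ± 7.74 CPM per kb (SD, n = 2), above Cx3cl1 at 40.2 ± 3.38, whose libraries overlapped those of Ccl2 at 36.5 and these those of Ccl7 at 30.8. Cxcl5 (8.57), Cxcl16 (4.58), Ccl5 (2.27), Cxcl1 (1.07), Cxcl10 (1.05) and Ccl9 (0.19) followed, and the libraries of Ccl5, Cxcl1 and Cxcl10 overlapped from one to the next. In line 1, Cx3cl1 had the highest mean at 83.2 ± 25.5 CPM per kb, followed by Ccl2 at 62.8 ± 3.30 and Cxcl12 at 43.9 ± 2.33. Cx3cl1 and Ccl2 were nearly equal in line 1 replicate 2 (65.16 and 65.1), so the lead of Cx3cl1 rests on line 1 replicate 1. Each of Cxcl12, Ccl7, Cxcl10, Cxcl5, Ccl5 and Cxcl1 (14.8) overlapped the next in that line, with Cxcl10 and Ccl5 spread widely. Cxcl12 lay above Cxcl5 in both libraries, and Cxcl12, Ccl7 and Cxcl5 all lay above Cxcl1. Cxcl16 at 2.16 and Ccl9 at 0.7 were lowest. In line 2, Cx3cl1 at 95.7 ± 4.22 CPM per kb stood just above Cxcl12 at 86.1 ± 8.64, with Ccl2 (51.1) and Ccl7 (44.9) overlapping below them, then Cxcl5 at 24.1 and Cxcl1 at 12.0. The 4 lowest genes in line 2, Ccl5, Ccl9, Cxcl10 and Cxcl16, lay between 1.06 and 3.65, each overlapping the next.

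Summed over the 10 genes, the length-scaled level was 200 and 228.3 CPM per kb in the WT libraries. It was 405.0 and 300.0 in those of line 1 and 316.0 and 330.2 in those of line 2. All libraries of the lines were above WT. The share of Cxcl12 in that sum was 47.2% and 36.5% in the WT libraries, against 10.4% and 15.2% for line 1 and 29.2% and 24.2% for line 2. Cxcl10 took 16.3% of it in line 1 replicate 1 and 3.02% in line 1 replicate 2, against at most 0.837% in the other libraries. The share of Cx3cl1 was 18.9% and 18.6% in WT libraries, 25.0% and 21.7% in line 1, and 29.4% and 29.9% in line 2. These shares carry no test.

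**Figure D3:**
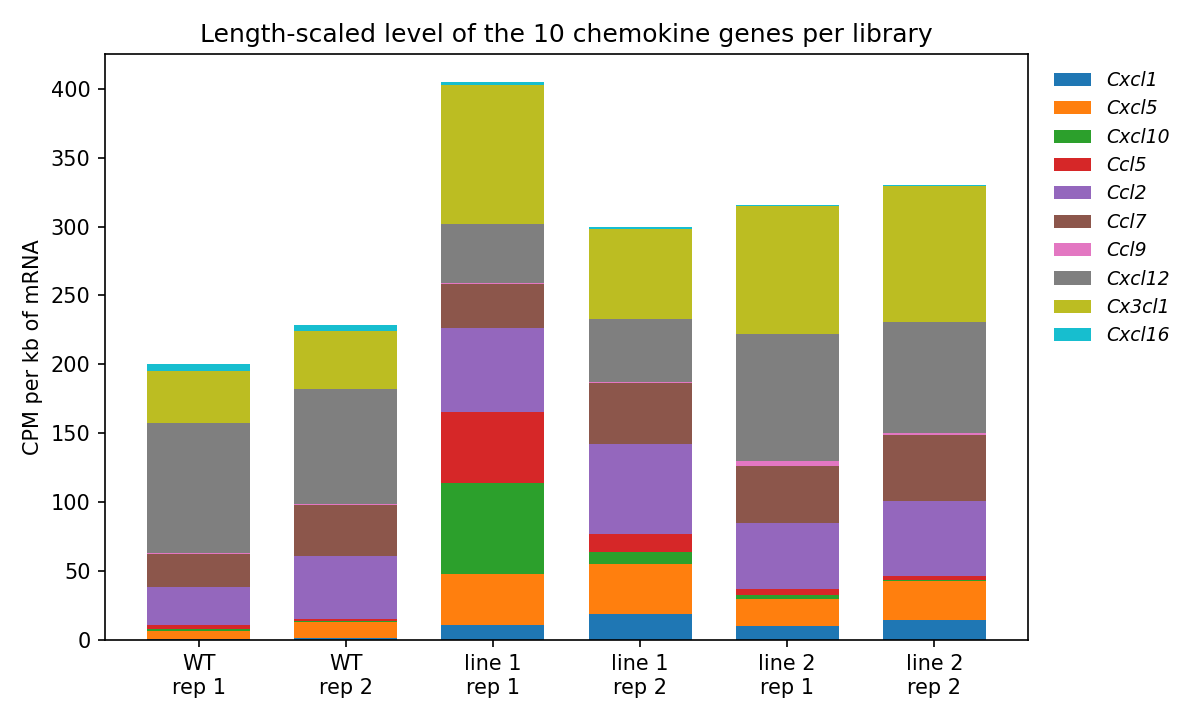
Level of the 10 chemokine genes per library in CPM per kb of mRNA, stacked, with 1 bar per library. The bars of the lines, at 300.0 to 405.0, are taller than those of WT, at 200 and 228.3, and the Cxcl12 segment is shortest in line 1.

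Other chemokine genes were mostly silent in these cells. Of 27 further ligands, 8 had no count in any library and 5 passed the filter. In line 1, Ccl8 and Ccl11 were called higher. Both were under the filter's 1.92 CPM in every WT and line 2 library and passed it through line 1 alone, so their number supports nothing by itself. Ccl8, a monocyte chemokine, had 0.5 counts in all of WT and 26.5 in line 1, a log2 ratio of 4.64 with a counting interval from 2.04 to 10.0 (adjusted p = 0.0295). Ccl11, or eotaxin, which draws eosinophils, had 0.5 and 31.5 counts, a log2 ratio of 4.89 with an interval from 2.31 to 10.2 (adjusted p = 0.0141). In line 2, 0 of the 5 passed against WT in edgeR, 0 at an unadjusted p under 0.05 and 0 in DESeq2. Between the lines Ccl11 was lower in line 2, with a log2 difference of -2.45 (adjusted p = 0.0431), and with the replicate block Ccl8 was lower too (0.00640). The Ccl8 call was lost in DESeq2 (0.0743) and without WT replicate 1 (0.0690), WT replicate 2 (0.195), line 2 replicate 1 (0.0548) or line 2 replicate 2 (0.0567), and the Ccl11 call in line 1 without WT replicate 2 (0.104). The Ccl11 difference between the lines was lost in DESeq2 (0.236) and without WT replicate 1 (0.0533), WT replicate 2 (0.0538), line 1 replicate 1 (0.0788), line 2 replicate 1 (0.230) or line 2 replicate 2 (0.272).

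Chemokine receptors were likewise few: of 23, 2 had no count in any library and 4 passed the filter. Of these, Ackr3 and Ccr1 passed the filter only through the groups where they were high, since Ackr3 was under 1.92 CPM in WT and Ccr1 had no count in WT or line 2. Ackr3, the scavenger receptor for Cxcl12, was called higher in both lines. It was at 0 and 0.32 CPM in WT, 7.30 and 10.1 CPM in line 1, and 2.42 and 4.23 CPM in line 2. The 3 groups did not overlap, with WT lowest and line 1 highest. From its counts the log2 ratio to WT was 5.55 in line 1 (counting interval 3.66 to 8.61, adjusted p = 0.00498) and 4.19 in line 2 (2.24 to 7.28, adjusted p = 0.0477). Between the lines Ackr3 was lower in line 2 with the replicate block (0.0103) and did not pass without it (0.109). Its line 1 call held with any library left out, and the line 2 call was lost without WT replicate 1 (0.201), WT replicate 2 (0.157), line 2 replicate 1 (0.131) or line 2 replicate 2 (0.314). Ccr1, a receptor for Ccl5, Ccl7 and Ccl9, had no count in WT or line 2 and 11 and 73 counts in line 1. With 3 counts over the group taken as the limit that a count of 0 allows, it was at least 25.9-fold higher in line 1 than in WT (adjusted p = 0.0387) and at least 28.5-fold lower in line 2 than in line 1 (adjusted p = 0.0390), and neither call was made by DESeq2 (adjusted p = 0.4 and 0.441). Without line 1 replicate 2, which held most of its counts, Ccr1 did not pass the filter. The call against WT was lost without WT replicate 1 (0.0920) or WT replicate 2 (0.132), and the call between the lines without line 2 replicate 1 (0.0969) or line 2 replicate 2 (0.152).

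The genes that process or anchor chemokines gave no call. Of 10 such genes, 8 were tested, and 0 passed in edgeR in any of the comparisons. In line 1, 3 were higher and 2 lower at an unadjusted p under 0.05, where 1828 and 1790 of all 12910 genes were. With the replicate block, which called 32.4% of all genes, 3 were also higher and 2 lower, while DESeq2 called 0 higher and 1 lower. In line 2 against WT there were 0 at an unadjusted p under 0.05 and 0 in DESeq2. Between the lines there were 2 higher and 1 lower unadjusted, where 1588 and 1592 of all genes were, and 1 higher in DESeq2. The block, which called 27.2% of all genes there, also gave 2 higher and 1 lower. Adam10, named for its role, was at 195 and 181 CPM in WT and 142 and 138 CPM in line 1, a log2 difference of -0.42 ± 0.11 (adjusted p = 0.0584). Adam17 was at 131 and 127 CPM in WT and 168 and 149 CPM in line 1, a log2 difference of 0.29 ± 0.12 (adjusted p = 0.175).

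The NF-kappaB pathway, through which interleukin-1 and tumour necrosis factor induce inflammatory chemokines, had few calls against WT, all of them higher. Of 27 tested genes of 28, 2 rose in line 1 and 0 fell. That is 7.41%, where 6.75% of all genes were called higher and 14.3% in either direction. In line 2, 1 rose and 0 fell. That is 3.7%, resting on 1 gene, where 1.73% of all genes were called higher and 3.58% in either direction. The median log2 fold change was -0.04 and 0.01. With the replicate block, 6 rose and 1 fell in line 1, where the block called 32.4% of all genes, 2103 of 12910 higher. In line 2, 5 rose and 0 fell with the block, where it called 12.1%, 758 of 12910 higher. Nfkbiz, a nuclear inhibitor-like cofactor of NF-kappaB, was at 60.1 and 61.8 CPM in WT, 200.3 and 162 CPM in line 1, and 70.0 and 72.9 CPM in line 2. It rose in line 1 by 1.57 ± 0.14 on the log2 scale (adjusted p = 0.00159). Tlr3, the endosomal sensor of double-stranded RNA, rose in line 1 by 2.58 ± 0.52 (adjusted p = 0.0250). In line 2 the gene called was Il1r1, the signalling receptor for interleukin-1, at 79.1 and 90.4 CPM in WT and 158 and 149 CPM in line 2, a log2 fold change of 0.85 ± 0.14 (adjusted p = 0.0340). Between the lines, the log2 difference of line 2 from line 1 was -1.34 ± 0.14 for Nfkbiz (adjusted p = 0.00270) and 0.98 ± 0.14 for Il1r1 (adjusted p = 0.00819), and with the block, which called 27.2% of all genes here, 6 were higher and 2 lower in place of 1 and 1. Both Nfkbiz calls held with any library left out. Tlr3 was lost without WT replicate 1 (0.126) or WT replicate 2 (0.105). Il1r1 in line 2 against WT was lost without WT replicate 1 (0.252), WT replicate 2 (0.174), line 2 replicate 1 (0.232) or line 2 replicate 2 (0.218), and between the lines without line 2 replicate 1 (0.0641) or line 2 replicate 2 (0.0653).

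Most of the interferon route's factors rose in line 1, as Cxcl10 and Ccl5 did. Of 5 genes tested, Irf1, Irf3, Irf7, Irf9 and Stat2, 3 rose in line 1 and 0 fell. Of all tested genes, 6.75% were called higher there and 7.55% lower. The list was chosen with earlier results of these data known, so its count supports nothing by itself. Irf7, the factor that amplifies interferon induction, was at 11.9 and 7.84 CPM in WT, 265 and 70.3 CPM in line 1, and 32.5 and 12.7 CPM in line 2. Line 1 was above all other libraries, with replicate 1 far above replicate 2. Its log2 fold change in line 1 was 4.10 ± 0.79 (adjusted p = 0.0201). Irf9 rose by 2.19 ± 0.34 (adjusted p = 0.00999) and Stat2 by 2.12 ± 0.53 (adjusted p = 0.0471), both of them subunits of the factor that binds the ISRE. In line 2 against WT 0 of the 5 passed in edgeR, with 0 higher and 1 lower at an unadjusted p under 0.05 and 0 in DESeq2. With the replicate block Irf3 was lower there (adjusted p = 0.0467), and Irf1 was higher in line 1 (0.00177). DESeq2 called 4 of the 5 higher in line 1 against WT, where it called 872 of all 12910 genes higher. It called 3 of the 5 lower in line 2 than in line 1, where it called 783 of all genes lower. Between the lines, Irf7 and Irf9 were lower in line 2, by log2 differences of -2.92 ± 0.72 (adjusted p = 0.0497) and -1.83 ± 0.33 (adjusted p = 0.0182). Of all tested genes, 5.76% were called lower there. With the block, which called 27.2% of all genes in either direction, 4 of the 5 genes were lower. Without WT replicate 1 or WT replicate 2, the line 1 calls were lost for Irf7 (0.0870 and 0.120) and Stat2 (0.118 and 0.217), and Irf9 was lost without WT replicate 2 (0.0665). Stat2 was also lost without line 1 replicate 1 (0.0699), line 2 replicate 1 (0.0616) or line 2 replicate 2 (0.0603). Between the lines, Irf7 was lost without WT replicate 1 (0.0754), WT replicate 2 (0.0698), line 1 replicate 1 (0.0762), line 2 replicate 1 (0.0924) or line 2 replicate 2 (0.226), and Irf9 without line 2 replicate 2 (0.105).

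Among 7 genes of chemokine mRNA decay, 1 rose in line 1 and 0 fell, which is 14.3%. Of all tested genes, 6.75% were called higher there and 14.3% in either direction. Zc3h12a, an endonuclease that degrades inflammatory transcripts, rose by 1.37 ± 0.21 on the log2 scale (adjusted p = 0.00984). That call was lost without WT replicate 1 (0.0673) or WT replicate 2 (0.0820). In line 2 its log2 difference was 0.96 ± 0.21 (adjusted p = 0.0768). There 0 of the 7 passed in edgeR, with 1 higher and 0 lower at an unadjusted p under 0.05 and 0 in DESeq2, and Zc3h12a passed with the replicate block (adjusted p = 0.0174). Between the lines 0 passed in edgeR, with 0 higher and 1 lower at an unadjusted p under 0.05 and 0 in DESeq2, and with the block Hnrnpd was lower in line 2 (0.0415).

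**Figure D4:**
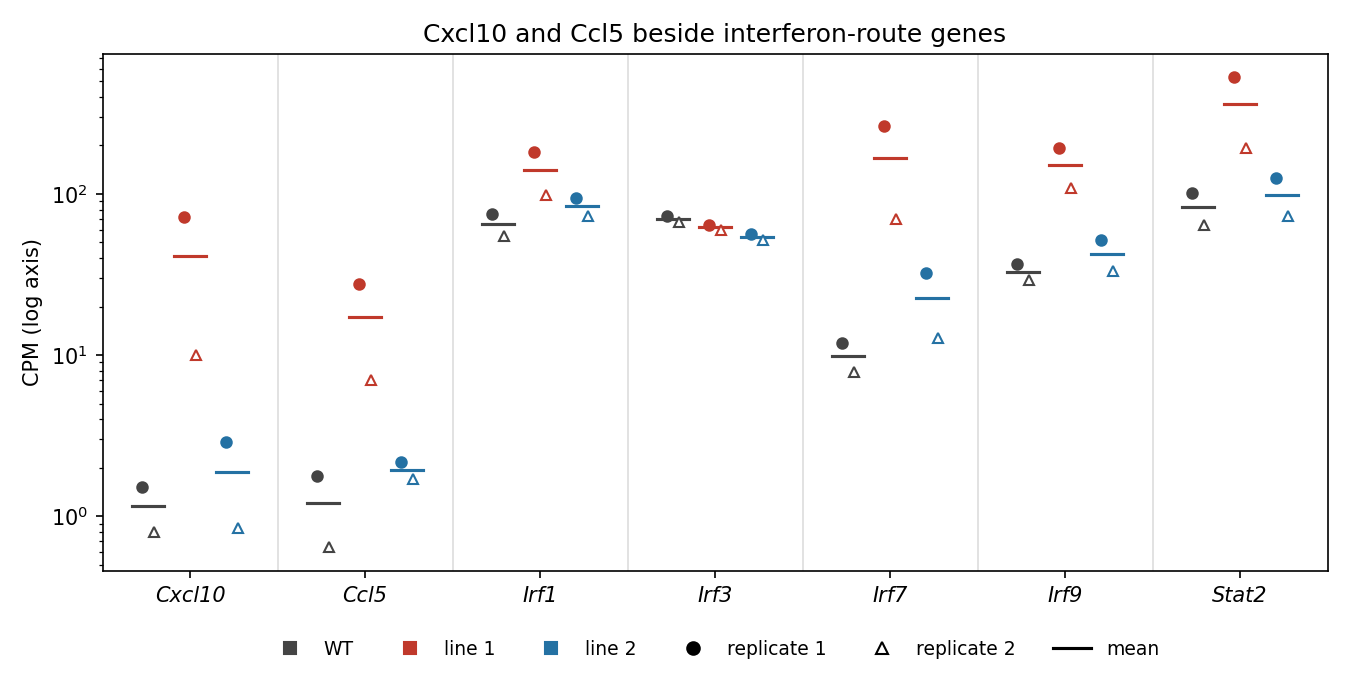
Level in CPM on a log axis of Cxcl10, Ccl5, Irf1, Irf3, Irf7, Irf9 and Stat2, with 1 point per library (circles for replicate 1, triangles for replicate 2) and a bar at the mean of each group. For Irf1, Irf7, Irf9 and Stat2, as for Cxcl10 and Ccl5, both line 1 libraries lie above the others, and replicate 1 lies above replicate 2.

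Genes whose levels were most like those of 3 chemokines were ranked by the distance between centred log2 CPM over the 6 libraries, among 10263 genes with a mean log2 CPM over 3 (10262 for Cxcl12). Nearest to Cxcl10 were Ifit3 (distance 0.58), Irf7 (1.24), Gbp2 (1.32) and Ifit1 (1.48), all of them genes induced by interferon. Ifit3 was at 251 and 49.2 CPM in line 1 and between 6.15 and 16.6 CPM elsewhere, CPM here including a prior count of 2. Nearest to Cxcl1 were Ahr, the receptor for aryl hydrocarbons (0.76), Ptp4a3 (0.93), Slc6a17 (1.03) and Cyp2j6 (1.06). Nearest to Cxcl12 were Zfp462 (0.17), Tacc1 (0.23), Epop (0.25) and Usp13 (0.27). The distances are a description over libraries that share depth and replicate structure, and they carry no test.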

How the data were processed

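The authors deposited expected counts of reads over the exons of each RefSeq transcript, which per the file headers were made with HOMER on mm10, in steps of 0.5 and without normalization. The submitters' processing notes also name Trim Galore 0.4.1, TopHat2, SAMtools and bedtools 2.25.0. Per the labels' protocols, ribosomal RNA was removed from total RNA and paired reads came from a directional kit. The use of strand in counting, and of reads matching several places, was not given in the sources used here. Reads of a gene therefore cannot be told apart from those of an overlapping or antisense partner. The table's 28972 transcripts were reduced to 24470 symbols by the highest total, and counts were rounded with 0.5 up. All 6 libraries were fitted together in edgeR 4.0.16 (R 4.3.3) with TMM scaling, edgeR's filter on low counts, a mean per group and quasi-likelihood tests, and p-values were adjusted by Benjamini-Hochberg over 12910 genes. The fit had 3 residual degrees of freedom (median moderated value 6.23) and a common biological coefficient of variation of 0.17. Standard errors and 95% intervals come from the log2 fold change, its F statistic and the moderated degrees of freedom, and counting intervals cover counting error only. The 10 chemokine genes and all gene lists were chosen with earlier results of these data known. The text names all 10, Xist, and from each list up to 4 genes called in a comparison. Other genes named were chosen for their role, or by distance of centred log2 CPM. The fit has no replicate block. Since the differences between replicates 1 and 2 correlated across genes at 0.54, 0.594 and 0.529 for the 3 pairs of groups, a fit with the replicate number as a block was also run. Its value, its call or its count of calls stands beside each result whose call it changed among the 10 chemokine genes and the pathway lists. For the cell type markers only some of its changes are given. Alternatives were DESeq2 1.42.0 and its size factors, no filter on low counts, a replicate block, counts summed over transcripts, no rounding, the compared groups only, and each library left out. The fit was tested on simulated data with known changes. Tables of alleles and of X-linked sites were not used. The result for 1 gene of the interferon list is not reported here.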

Additional observations from a re-analysis of the deposited data

Results flagged for a closer look

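For the following genes the change against WT differed between the lines, by the test of line 2 against line 1 in edgeR's quasi-likelihood fit, with n = 2 libraries a group and adjustment over 12910 genes. Each value is the log2 difference of line 2 from line 1. Among the chemokines, the values were -4.56 for Cxcl10 (adjusted p = 0.0476), -3.12 for Ccl5 (0.0497), 0.97 for Cxcl12 (0.00672) and 1.91 for Ccl9 (0.0289). Both line 2 libraries were below both line 1 libraries for Cxcl10 and Ccl5 and above them for Cxcl12 and Ccl9. Ccl11 differed by -2.45 (adjusted p = 0.0431) and was lower in 2 of 2 line 2 libraries. The fitted value for Ccr1 was -8.21 (adjusted p = 0.0390). With no count in line 2 that value depends on the fit's prior, and the bound from counts is at least 28.5-fold lower. Among the pathway genes, Irf7 differed by -2.92 (adjusted p = 0.0497), Irf9 by -1.83 (0.0182), Nfkbiz by -1.34 (0.00270) and Il1r1 by 0.98 (0.00819), with no overlap between the libraries of the lines. With 2 libraries a group, no library could be tested as standing apart from its group.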

How the results depend on the processing

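The values of the 10 genes were recomputed under 13 alternatives. Of 387 values, 315 kept direction and side of the threshold, 58 kept direction and lost the call, 9 gained a call and 5 changed sign, none of them called. In line 2 against WT, Cxcl10 turned to -0.37 on the log2 scale without line 2 replicate 1 (range with a library left out -0.37 to 1.39), and Cxcl12 to 0.04 without WT replicate 1 and 0.053 without line 2 replicate 2 (range -0.15 to 0.053). Between the lines and without line 1 replicate 2, Cxcl1 turned to 0.17 (range -0.63 to 0.17) and Cx3cl1 to -0.076 (range -0.076 to 0.56). With the replicate block, which pairs libraries of the same number, 4182 genes were called in line 1 against 1846 without it, 1568 against 462 in line 2, and 3506 against 1630 between the lines. The block ended no call among the 10 genes. In line 2, 948 genes were called with no filter and 790 with only the compared groups. With a library left out, genes called ran from 718 to 2361 in line 1, from 23 to 783 in line 2 and from 600 to 1991 between the lines. Chemokine genes called then ran from 2 to 5 higher and stayed at 1 lower in line 1, from 0 to 3 higher and 0 to 1 lower in line 2, and from 0 to 2 in either direction between the lines. With only the compared groups, line 1 had 2 higher and 1 lower, and the lines differed at 1 higher and 0 lower. DESeq2 called 1 lower in line 1 and 1 higher between the lines, and counts summed over transcripts gave 1 lower between the lines. For these counts the cause was not tested. Depth limits Cxcl1, Cxcl10, Ccl5 and Ccl9, whose WT libraries held 2 to 7.5 counts.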
